A study of Mus musculus with 10 samples.

Results

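Transcript abundance in non-deprived visual cortex of mice at postnatal day 18 (P18) was described from 5 one-colour Affymetrix oligonucleotide arrays, those whose titles name the non-deprived group, out of the 10 arrays of the series. Of 12488 probe sets, 66 array controls were left out, and the other 12422 were ranked by their mean signal over the 5 arrays. The mice were wild-type C57Bl6 animals from which one eye had been removed at P14. Cortex was cut from coronal sections 1 mm thick, 4 days later, and the non-deprived samples came from the hemisphere on the side of the removed eye. No mouse in the series was left intact, so the values describe cortex that kept the crossed input of the remaining eye, not cortex of an unoperated animal. The labels speak of pooled tissue and of 4 mice without saying how the animals were shared among the 5 samples, so the spread between arrays may be technical in part.

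The visual cortex is a sheet of excitatory pyramidal and spiny stellate neurons with a smaller population of GABAergic interneurons, supported by astrocytes, oligodendrocytes, microglia and blood vessels. In the third postnatal week the mouse has just opened its eyes: synapses form rapidly, axons and dendrites still grow, and myelin begins to be laid down. Neurons of this age are known for high production of cytoskeletal proteins, membrane trafficking proteins and the enzymes that supply ATP. RNA of whole tissue mixes all of these cells, and fewer cells of a type and less RNA per cell cannot be told apart.

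A signal here is the MAS5 intensity of a probe set, the group of short oligonucleotides that stands for a transcript, in arbitrary units on a linear scale. Every such signal also depends on how well its own oligonucleotides hybridise, so the order of signals is not an order of transcript numbers. How far probe sets of the same gene differed was measured on the 2073 genes with at least 2; isoforms and annotation enter this difference as well. Between their brightest and dimmest probe set the median ratio was 4.55 (quartiles 2.10 and 14.4). The probe sets agreed within 2-fold for 486 of these genes (23.4%), and for 664 (32.0%) they differed more than 10-fold. Some probe sets carry a suffix for lower specificity or belong to a block with shared leading numbers. With both kinds left out, the median ratio was 3.77 over 655 genes. With only the suffixed probe sets left out, it was 3.94. Gria2, which encodes the AMPA receptor subunit that sets calcium permeability, showed the widest gap, from 8571 ± 283 (SD, n = 5; all later values after ± are also SDs over the 5 arrays) down to 0.58 ± 0.71 for another probe set. Ccni, Prdx2, Rnf20 and Naca followed, with brightest and dimmest means of 4896 and 2.22, 4327 and 2.74, 691 and 0.44, and 2450.1 and 2.74. A dim signal therefore does not show that a transcript was absent. Below, each gene is represented by its brightest probe set.

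The mean signals ran from 0.36 to 25932, with a median of 198 over probe sets. Signals under 100 were found for 4613 probe sets (37.1%), 100 to under 500 for 4099 (33.0%), and 500 to under 2000 for 2814 (22.7%). A further 826 probe sets (6.65%) lay at 2000 to under 10000, and 70 (0.564%) at 10000 and over. The few brightest probe sets carried much of the light of the array. The brightest 1% (124 probe sets, with means of at least 7398) held 17.8 ± 0.500% of the summed signal, between 17.3 and 18.4% on the single arrays. The brightest 5% held 43.3 ± 0.530% and the brightest 10% held 58.5 ± 0.536%. The top 851 probe sets (6.85%) together reached 50% of the summed signal, and the dimmer 50% of probe sets held 5.08%. By class, the shares of the summed signal rose from 2.24 ± 0.0659% under 100 to 12.9 ± 0.254%, 33.7 ± 0.280% and 39.1 ± 0.184% in the next 3 classes, and then stood at 12.1 ± 0.416% for the 70 brightest probe sets.

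**Figure D1:**
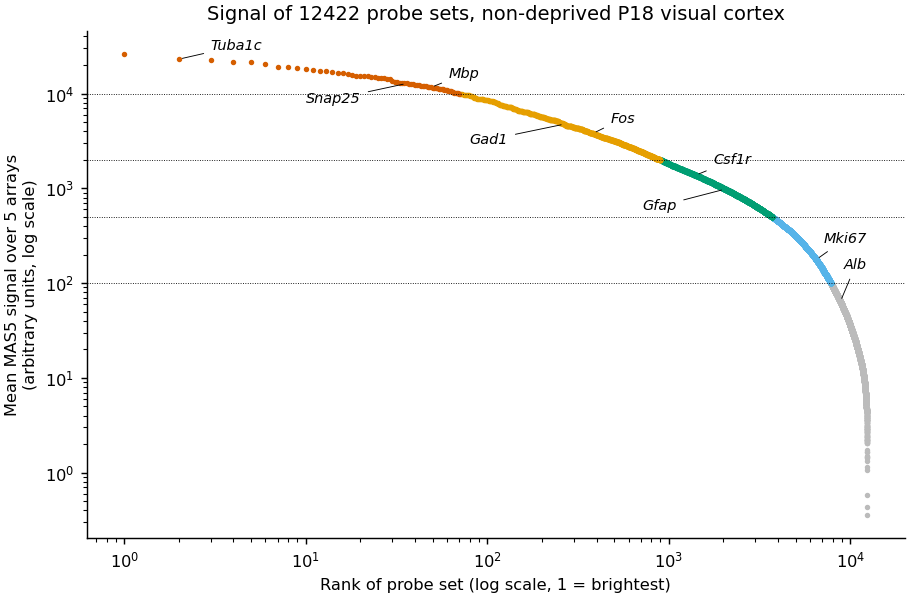
Mean MAS5 signal over the 5 non-deprived arrays (vertical axis, arbitrary units, log scale) of each of 12422 probe sets against its rank (horizontal axis, log scale); dotted lines mark the class limits at 100, 500, 2000 and 10000, colours mark the classes, and 9 genes are named. Signal falls slowly over the first 70 ranks, which all lie at 10000 and over, and steeply below 100, where 4613 probe sets lie.

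A single gene symbol was available for 10833 probe sets (87.2%), which stand for 8251 genes with a median signal of 294. As a reference for dim signal, 68 measured genes typical of liver, muscle, pancreas, testis, kidney, skin, gut, lung, lymphocytes, retina and other organs were used. Their median was 59.0 and their 90th percentile was 330, and 66 of the 68 lay under 500. Of all genes, 3897 (47.2%) were above that 90th percentile and 3037 (36.8%) were at 500 or more. Alb, the serum albumin of the liver, had signals of 78.1, 79.4, 41.1, 85.4 and 34.5 on replicates 1 to 5. Tnp1, a nuclear protein of maturing sperm, was the brightest of the list with 613, 591, 632, 609 and 592, from a probe set designed under relaxed rules. Ctrb1, the pancreatic protease precursor chymotrypsinogen B, reached 521 ± 115 and was also read by a probe set of that kind. The 90th percentile of this list, 330, is used below as a yardstick, since 90% of these genes, typical of other organs, lie under it. Whether cortex uses some of them was not tested.

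Of the 70 probe sets at 10000 and over, 55 carried 1 symbol and named 50 genes, 5 carried several symbols and 10 none. The brightest of all 12422 (25932 ± 2865) and the one ranked 3 (22515 ± 1289) have no gene in the annotation table. On every one of the 5 arrays, 55 probe sets lay at 10000 and over, and 85 did so on at least 1. Fth1, the heavy chain of the iron store ferritin, was just inside that limit with a mean of 10002, and Dynll2, a light chain of dynein and myosin V motors, was just outside with 9962.

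Among the named genes with the highest signals were several of microtubules and actin. Tuba1c, an alpha-tubulin, had the brightest named probe set: its signals were 22353, 23410.3, 26253, 20799 and 22289.7 on replicates 1 to 5, a mean of 23021 ± 2032. It led the named genes on 4 of the 5 arrays, and replicate 3 gave the highest value. Tuba1a, the alpha-tubulin of newly formed neurons, gave 19933, 22586, 24552, 19725 and 20409, again highest on replicate 3. The coding sequences of alpha-tubulins are nearly identical, and both probe sets bear suffixes for shared sequence or an incomplete design, so their signals may be mixtures of several tubulin transcripts. Without probe sets of lower-specificity suffixes, Tuba1c, Tuba1a, Basp1 and Tubb2a have no probe set left, and neither do Cpe and Rpl41, described below. The highest means are then those of Dnm1 (19104) and App (18165), described next. The beta-tubulin Tubb2a followed with 15306 ± 2092, and Tubb5 with 11502 ± 129. Actg1, the cytoplasmic gamma-actin, had 15234, 16800.4, 17981, 17310.0 and 15301, with the replicates within a 1.18-fold range. Basp1, a membrane-bound growth-cone protein that organises actin, had 20273, 21288, 22623, 19169.9 and 19219.9, and its other probe set read 13242 ± 549. Rac1, the small GTPase that drives actin assembly in spines and growth cones, had 12833 ± 1159, and Stmn1, a protein that takes microtubules apart, had 10357 ± 235. Of 58 genes listed for tubulins, actins and partners, 43 (74.1%) were at 500 or more, against 36.8% of all genes, with a median of 1181 against 294.

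Several of the other bright genes, grouped here by their known roles after ranking and not from a list, act in membrane traffic or at the cell surface. Dnm1, the neuronal dynamin that pinches synaptic vesicles off the membrane, gave 18709, 22060.1, 27116, 19578 and 20573, and was the brightest named gene on replicate 3. Without that array the 4 values lie between 18709 and 22060.1, and its other probe set read 19104 ± 1006. Cpe, the carboxypeptidase that trims peptide hormones and neuropeptides, had 17398, 19405, 19698, 19168 and 16929. App, the amyloid precursor protein, had 16899, 20009, 19964, 17617 and 16335. Its values were highest on replicates 2 and 3. Prnp, the prion protein, had 17386 ± 1267, and Rtn1 and Rtn3, reticulons that shape the endoplasmic reticulum, had 14514 ± 681 and 12863 ± 1424. Without probe sets of lower-specificity suffixes, Rtn3 had a mean of 8972. Cx3cl1, the membrane-tethered chemokine that neurons present to microglia, had 16655, 16480.1, 20591, 17791 and 17297. Its receptor Cx3cr1, which in brain is found on microglia, had 439, 425, 439, 435 and 357, between 357 and 439 on all arrays. Zwint, a kinetochore protein that also binds SNAP25, had 14577, 14527, 19358, 14603 and 14266, where 4 arrays lay close together and replicate 3 stood above them; a plain probe set of the same gene read 10711 ± 1154.

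The next genes, also grouped after ranking, encode signalling proteins. Gnas, the stimulatory G protein alpha subunit gene, had 17122, 20524, 16342, 16033 and 17319, highest on replicate 2, and its dimmest probe set read 117 ± 40.7. Gnao1, the G protein subunit most abundant in brain, had 12506 ± 1453. Ywhag and Ywhaz, 14-3-3 adaptors that bind phosphorylated proteins, had 14526 ± 1566 and 13295 ± 1638. Gsk3a, a kinase of the insulin and Wnt pathways, had 14939 ± 1822, Ndrg4, a protein enriched in brain and heart, had 16987 ± 1684, and Prkcb, a protein kinase C, had 11119 ± 1069. Gnao1 and Prkcb belong to the 50 genes of the top class but not to the 25 brightest.

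Protein synthesis was represented among the 25 brightest genes by 4: Rpl41, a short peptide of the large ribosomal subunit, Eef1a1 and Eef1a2, which carry aminoacyl-tRNA to the ribosome, and Tpt1, a growth-related protein regulated at translation, with a mean of 14219 ± 1982. Rpl41 had 16488, 15097, 14879.6, 14572 and 15809, a spread of 5.04% of the mean. Eef1a2, the elongation factor of mature neurons and muscle, had 17649.5, 9834, 12971, 16237 and 14249, highest on replicates 1 and 4 and lowest on replicate 2, a spread of 21.3%. Its paralogue Eef1a1, which neurons replace as they mature, had 13068, 14975, 16980.1, 14479.5 and 14482. Its lowest value fell on replicate 1, where Eef1a2 was highest. Apoe, the lipid carrier secreted by astrocytes, and Cst3, a secreted protease inhibitor, were also among the 25 brightest, with 15496 ± 889 and 13041 ± 1692. With the mean over all probe sets of a gene, they fell to 7766 and 6945. Cx3cl1, Ndrg4, Tubb2a and Ywhag, described above, fell to 9093, 9269.8, 7817 and 7443 in the same way. Of the 25, 19 were among the 25 brightest on each of the 5 arrays, and 21 to 24 on any single array.

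**Figure D2:**
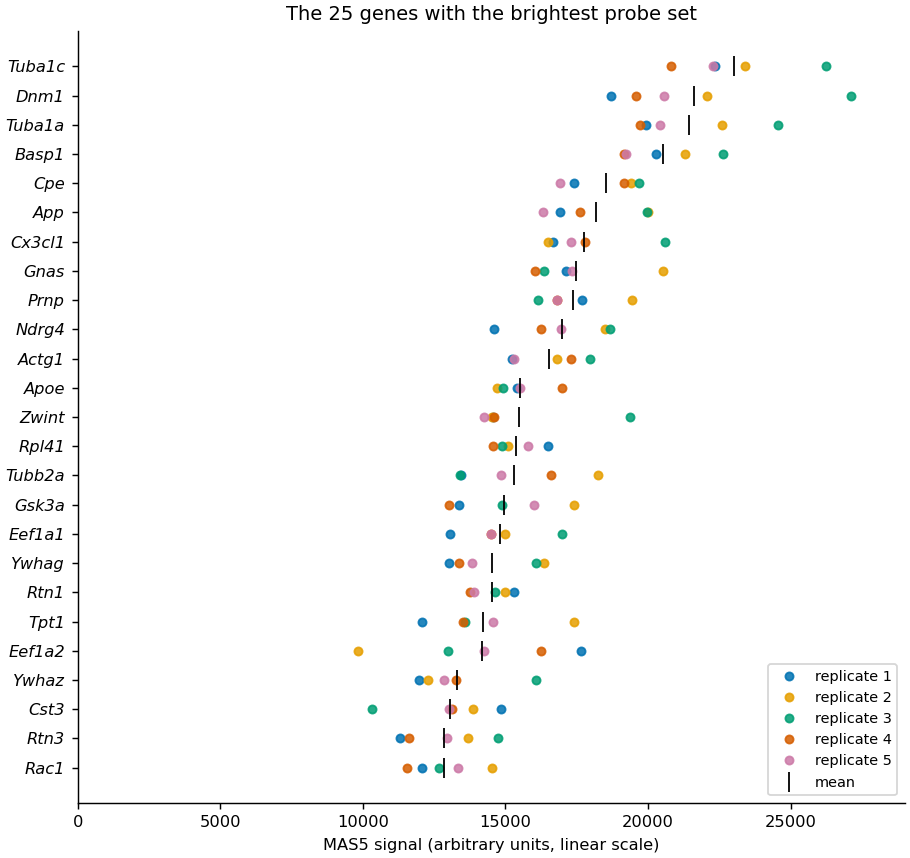
MAS5 signal (horizontal axis, arbitrary units, linear scale from 0) of the 25 genes with the brightest probe set of 1 symbol; each coloured point is one of the 5 non-deprived arrays and the black bar is their mean. Neighbouring genes overlap widely; Dnm1 on replicate 3 (27116) is the highest value plotted and Eef1a2 on replicate 2 (9834) the lowest.

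The overlap between neighbouring genes limits the order. The mean of Tuba1c exceeded that of Tuba1a by less than either gene's SD, although Tuba1c was the higher of the pair on each of the 5 arrays. An SD over arrays also holds shifts that genes of the same array share. The means from App to Ndrg4 lay within 1 SD of each other. A probe set kept its class on all 5 arrays in 78.0% of cases, from 71.0% in the class of 100 to under 500 to 82.9% under 100.

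General markers of neurons were bright. Of 16 measured pan-neuronal genes, 14 (87.5%) were at 500 or more, against 36.8% of all genes. The median of the 16, 3768, sat at percentile 96.2 of all genes. Snap25, the SNARE protein of the presynaptic membrane, had 13359, 12774, 13322, 12095 and 12278, a spread of 4.55% with no array apart. Thy1, a surface glycoprotein of projection neurons, had 10473, 11386, 10718, 10591 and 10993. Tubb3, the neuronal beta-tubulin, had 9724 ± 403, and Stmn2, a stathmin of growing axons, had 4574 ± 209. Nefl, the light neurofilament chain, which rises as axons thicken, had 1019 ± 69.1. Map2, the dendritic microtubule protein, had only 141, 235, 148, 144 and 169, below the yardstick on every array, although it is a standard marker of these cells.

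Excitatory neurons were represented by 9 measured genes, of which 7 (77.8%) were at 500 or more, against 36.8% of all genes. Tbr1, a transcription factor of glutamatergic neurons of the cortex, had 6300.3, 7576, 6359.5, 5399.6 and 6035. Nrgn, a postsynaptic calmodulin-binding protein, had 6358, 4254, 4436, 7051 and 5950.4, highest on replicates 1 and 4 and lowest on 2 and 3. Mef2c, a transcription factor of cortical excitatory neurons, had 4771 ± 401, and Neurod2, a factor of their differentiation, had 1251 ± 84.1. Neurod6 was at 295, below the yardstick of 330. Of 17 measured genes of cortical layers or areas, 7 (41.2%) were at 500 or more, near the share of all genes (36.8%). Lmo4, a LIM-only transcriptional cofactor with patterned expression across cortical areas, had 5495, 6178, 5105, 4040.4 and 6350.3. Nr2f1, the factor that sets a caudal, sensory identity of cortex, had 2593 ± 213. Cux1, of the upper layers, had 1419 ± 78.1, and its relative Cux2 had 295. Fezf2, the master factor of subcortical projection neurons in deep layers, had 1124, 1897, 964, 999 and 1175, with replicate 2 above the rest. Pcp4, a calmodulin regulator used as a deep-layer marker, was at 29.0.

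GABAergic neurons left strong signals of some markers and weak ones of others. Of 20 measured genes, 9 were at 500 or more, with a median of 447. Gad1, the enzyme that makes most of the GABA, had 5544, 4857, 4586, 4472 and 4343, while the second GABA-synthesising enzyme, Gad2, had 110.0, 163, 151, 160.0 and 141, under the yardstick on all arrays. Slc32a1, the vesicular GABA transporter, had 4343, 4278, 3700.0, 3334 and 4659. Cck, a neuropeptide of some interneurons that pyramidal cells also express, was the brightest of the list at 6867 ± 674. The 3 main interneuron classes are usually told apart by Pvalb, Sst and the serotonin receptor Htr3a. Pvalb, the calcium buffer of fast-spiking cells, had 2353, 2575, 2685, 2175 and 2436. Sst, the neuropeptide somatostatin, had 2592, 2079, 2219, 3241 and 2630.3, highest on replicate 4. Htr3a had 305 ± 35.6 and Vip, a neuropeptide of a subgroup of those cells, had 181 ± 18.2, both with means under the yardstick. The neuropeptide Npy and the calcium buffer Calb1 were at 1634 and 1425.

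Astrocyte markers ranked among the bright genes, with 14 of 19 measured members (73.7%) at 500 or more, against 36.8% of all genes, and a median of 1145. Sparcl1, a secreted protein that promotes excitatory synapses, had 8981, 8667, 8413, 8709 and 9016, a spread of 2.83%. Gja1, the gap junction protein connexin 43, had 7278 ± 503, and Aldoc, the aldolase of astrocytes, had 7643 ± 657. Mt3, a metal-binding protein of brain, had 9780.3, 5544, 4965, 8531 and 7819, higher on replicates 1, 4 and 5 than on 2 and 3. Gfap, the intermediate filament, had 1239, 992, 711, 946 and 1009.7. Glul, which turns glutamate into glutamine, varied most among the members at 500 or more, with 2694, 6864, 3635, 2011 and 3854; replicate 2 was 3.41-fold above replicate 4. Slc1a2, the main glutamate transporter, had 214, 285, 223, 277 and 183, under the yardstick on all arrays.

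Myelin genes were measured by 10 members, of which 7 were at 500 or more. Mbp, a structural protein that compacts myelin, had 10943, 11512, 9668, 14516 and 11419. Its highest value was on replicate 4 and its lowest on replicate 3. Mobp, another compact myelin protein, had 4713, 4976, 4533, 5857 and 5641, and Mag, the adhesion protein next to the axon, had 1464, 1124, 1283, 1799 and 1492. Cldn11, the tight-junction protein of myelin, had 1711 ± 342, Mal had 1566 ± 157, and Mog, a late surface protein of the sheath, had 747 ± 135. Cnp, an enzyme of uncompacted myelin, was at 31.4 and its values (17.7, 52.9, 10.3, 21.3 and 54.8) lay far under the yardstick. Of 5 measured precursor markers 3 (60.0%) were at 500 or more, Pdgfra, Bcan and Ptprz1, against 36.8% of all genes. Of the rest, 1 lay at 100 to under 500 and 1 under 100. Pdgfra, the growth factor receptor of oligodendrocyte progenitors, had 1795, 1191, 1172, 1714 and 1507. Bcan and Ptprz1, matrix and surface proteins shared with astrocytes, had 2437 ± 146 and 1630.3 ± 332.

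Markers of microglia and vessels had signals near those of genes in general. Of 19 measured microglial genes 7 (36.8%) were at 500 or more, the same share as over all genes (36.8%), and the median of 252 sat at percentile 46.6 of all genes. Ctss, a lysosomal protease, had 1801, 1601, 1069, 1541 and 1460.1, and Csf1r, the receptor microglia need to survive, had 1341, 1224, 1543, 1378 and 1392. The complement chains C1qa and C1qc had 949 ± 122 and 922 ± 111. Aif1, Itgam and Ptprc, which label microglia or all leukocytes in staining, were at 50.1, 34.8 and 17.0. Of 17 endothelial genes, 5 (29.4%) were at 500 or more, led by Bsg at 5196 ± 489, a transporter chaperone that many other cells share. Cldn5, the tight-junction protein of the blood-brain barrier, had 988, 857, 1121, 1138 and 999, and Eng, a TGF-beta coreceptor, had 1163 ± 135.

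Tissue next to the cortex could be cut with it, and its markers were checked. Of 7 measured choroid plexus and ependyma genes none reached the yardstick, which 47.2% of all genes exceeded. Ttr, the thyroxine carrier that choroid plexus makes in very large amounts, had 24.6, 111, 72.3, 109 and 16.9, and Foxj1, the factor of ciliated cells, had 276 ± 41.3. Among 22 genes of mural cells and meninges 8 (36.4%) were at 500 or more, a share like that of all genes (36.8%), and 5 were without probe sets of lower-specificity suffixes. Ptgds, a prostaglandin synthase of meninges and oligodendrocytes, had 6428, 7347, 3461, 6043 and 4259, which differed 2.12-fold between replicates 2 and 3. Igf2, a growth factor made by meninges and vessels, had 2067, 1988, 1926, 2093 and 2241, within 1.16-fold. Acta2, the actin of smooth muscle, was at 141. Of the globins of red blood cells, Hba-a1, an alpha chain, had 3923, 3643, 2754, 3476 and 3515, and Hbb-b2, a beta chain, had 913 ± 119. Alas2, the haem enzyme of red cell precursors, had 219 ± 43.6, under the yardstick. Of 15 genes for thalamus, striatum or hippocampus 5 (33.3%) were at 500 or more, near the share of all genes (36.8%). The brightest were Pde1b, a calmodulin-regulated phosphodiesterase, at 1505 ± 103, Penk, the enkephalin precursor, at 1141 ± 96.4, and Wfs1, an endoplasmic reticulum protein, at 1021 ± 377, and all of these are also found in cortical cells. Tcf7l2, a factor of thalamic neurons, had 544, 436, 513, 478 and 682, and the thalamic factors Gbx2 and Lhx9 were at 23.1 and 8.12. Of 31 Hox genes, which pattern hindbrain and body but not cortex, 2 (6.45%) were at 500 or more, against 36.8% of all genes. These were Hoxa4 (1117 ± 104) and Hoxb8 (808 ± 171), both read by probe sets of relaxed design. What part tissue or blood of this kind had in other signals was not tested.

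**Figure D3:**
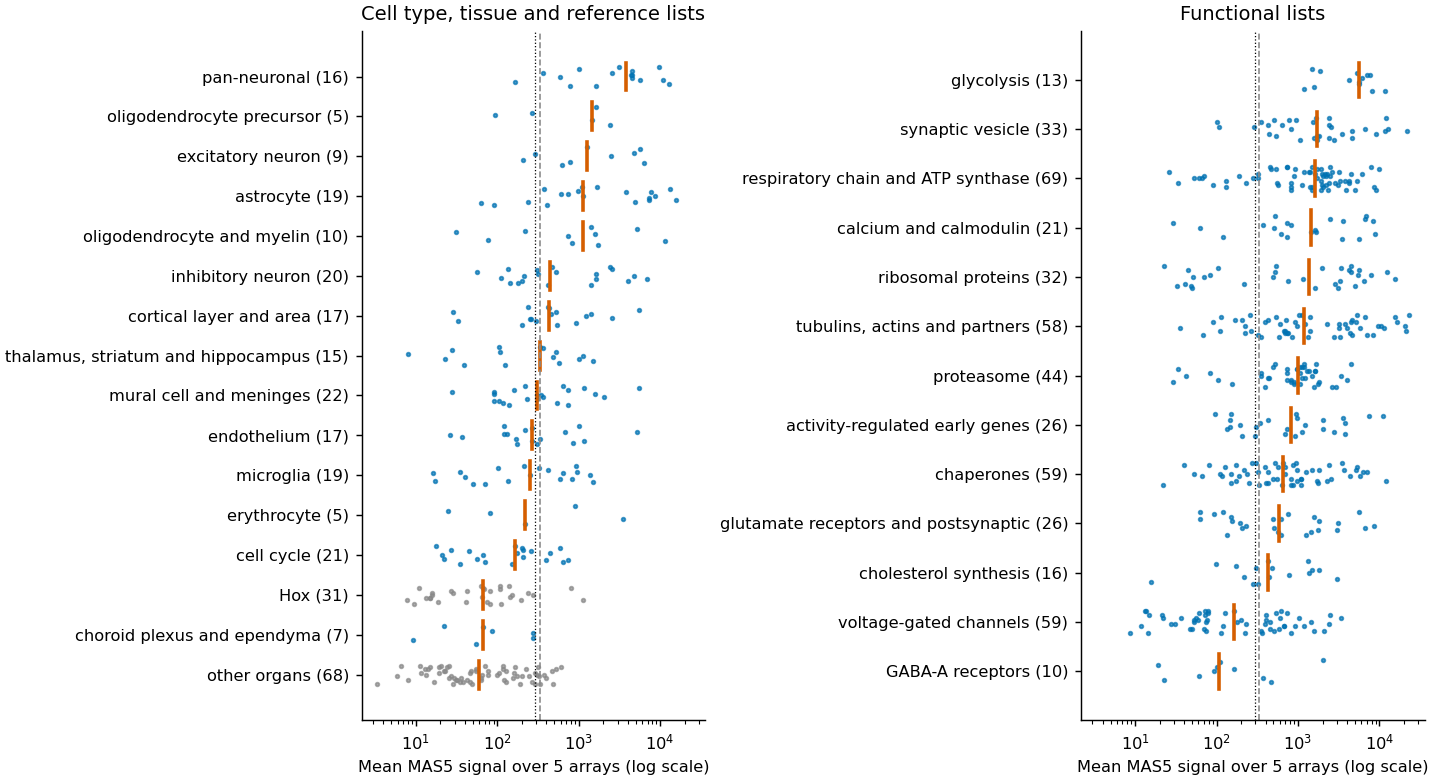
Mean MAS5 signal over the 5 arrays (horizontal axes, arbitrary units, log scale) of every measured gene of 29 gene lists, one point per gene, with the list's median as an orange bar and its number of measured genes in parentheses; the dotted line is the median of all 8251 genes (294) and the dashed line the 90th percentile of the other-organ genes (330). Glycolysis has the brightest median (5559) and other organs (59.0) the dimmest, and grey points mark the 2 dim reference lists.

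Of the 29 lists, glycolysis had the highest median signal, 5559, at percentile 98.1 of all genes, and all 13 of its measured genes were at 500 or more. Aldoa, the main aldolase, had 13650.0, 11529, 11193, 11153 and 11374, where replicate 1 stood above the other 4. Pkm, pyruvate kinase, had 8168 ± 867. Hk1, the brain hexokinase that starts the pathway, had 2169.5, 1573, 922, 1322 and 1368, 2.35-fold between replicates 1 and 3. Of 69 genes of the respiratory chain and ATP synthase 53 (76.8%) were at 500 or more, against 36.8% of all genes, with a median of 1640. The cytochrome oxidase subunits Cox6a1 and Cox6c had 10010.1 ± 863 and 8622 ± 1050.4, and Atp5a1, the alpha chain of the ATP synthase, had 9175 ± 644. Ckb, the brain creatine kinase that buffers ATP, had 12101 ± 965.

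Protein production and upkeep gave broader ranges. Of 32 ribosomal protein genes 20 (62.5%) were at 500 or more, against 36.8% of all genes, with a median of 1379. Under 100 were 9 of the 32, where 28.7% of all genes lay, although all are components of the same particle or close copies. Rps24 and Rps28, of the small subunit, had 12248 ± 769 and 7818 ± 426, whereas Rpl32, Rps14 and Rps20 were at 83.4, 52.0 and 49.5. Of 44 proteasome genes 32 (72.7%) were at 500 or more. The brightest were Psmd11, a lid subunit of the regulatory particle, at 4521 ± 835, and Psma3 and Psmb1, of the core, at 3942 and 3379.7. Of 59 chaperone genes 34 (57.6%) were at 500 or more, led by Hsp90aa1 (11962 ± 1161), Hspa8 (6965 ± 391) and the immunophilin Fkbp1a (6279.9 ± 427). Of 16 cholesterol synthesis genes, 6 (37.5%) were at 500 or more, a share near that of all genes (36.8%), led by Hmgcs1, the synthase at the entry of the pathway, at 3029 ± 272.

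Synaptic genes were measured on both sides of the cleft. Of 33 synaptic vesicle genes 27 (81.8%) were at 500 or more, against 36.8% of all genes, with a median of 1693. Of 26 genes for glutamate receptors and postsynaptic proteins 15 (57.7%) were, with a median of 588. Vamp2, the vesicle SNARE, had 11687, 13053, 11331, 11492 and 10705, and Atp6v1b2, a subunit of the proton pump that fills vesicles, had 12121 ± 839. Behind the cleft, the brightest gene was Gria2 with 8382, 8434, 8465, 8503 and 9072, a tight group with replicate 5 above it. Gria1 and Gria3 were at 1580.2 ± 213 and 612 ± 195, and the NMDA receptor subunit Grin2b at 197 ± 58.0. Camk2b, the beta subunit of calmodulin kinase II, had 6671 ± 623, and the alpha subunit Camk2a, a major protein of the mature postsynaptic density, had 717, 459.9, 452, 795 and 663. Of 10 measured GABA-A receptor genes only Gabrb1, a beta subunit, was at 500 or more (10.0%, against 36.8% of all genes), at 2037, 2153, 2017, 2004 and 1955. Gabra2, an alpha subunit of early synapses, followed at 467 ± 77.3. Of 59 ion channel genes 18 (30.5%) were at 500 or more, against 36.8% of all genes. Under 100 were 26 of the 59, where 28.7% of all genes lay. The brightest were Kcnma1, the calcium-activated BK channel, with 3399, 4075, 3127, 3238 and 3213, Kcnab2, an auxiliary potassium channel subunit, with 2490.4 ± 399, and Scn1a, a sodium channel of fast-spiking neurons, with 2412 ± 286. Calcium handling was bright again, with 17 of 21 genes (81.0%) at 500 or more. It was led by the calcineurin chains Ppp3r1 (8858 ± 577) and Ppp3ca (6875 ± 748) and the calcium sensor Vsnl1 (8284 ± 487).

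Of the genes that neurons switch on with activity, 17 were above the yardstick, where 47.2% of all genes lay. Of the 26 measured members 15 (57.7%) were at 500 or more, against 36.8% of all genes, with a median of 825 at percentile 75.7. Jund, the AP-1 member that is present without stimulation, had 10788, 12557, 11796, 9055 and 11287. Egr1, a zinc-finger factor that follows visual input in this tissue, had 6648, 8691, 6269, 7113 and 8374. Fos, the AP-1 partner used to mark active neurons, had 2897, 4585, 4124, 3583 and 3769, and Nr4a1, an orphan nuclear receptor, had 2305, 4145, 3558, 4409 and 3651. Replicate 1 gave the lowest value of both genes, and also of Dusp1, a phosphatase that ends MAP kinase signalling, which had 3029, 4205, 3593, 4247 and 4073. Bdnf, the neurotrophin, had 1894, 2178, 2321, 1947 and 1828. Its lowest value fell on replicate 5, so the low value on replicate 1 was not shared by every member. At the low end Ptgs2 had 147 ± 19.7 and Homer1 136 ± 33.4. Cell cycle genes were mostly dim: of 21 cell cycle genes 3 (14.3%) were at 500 or more, against 36.8% of all genes. These were Pcna (740.3 ± 126), Foxm1 (640.1 ± 197) and Plk1 (589 ± 99.1), and Mki67, the proliferation marker, was at 177 ± 26.9.

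The spread between the 5 arrays narrowed with signal. The coefficient of variation (CV, the SD as a percentage of the mean) had a median of 17.5% over all probe sets. It was 38.9% under 100, 15.8% at 100 to under 500, 10.5% at 500 to under 2000, 9.23% at 2000 to under 10000, and 8.48% at 10000 and over. Among the 3710 probe sets with a mean of 500 or more, Srp9, a subunit of the signal recognition particle, had the lowest CV of those with 1 symbol, 0.94%, with 1258, 1248, 1231, 1257 and 1259.5. Tubb5 came next with 11302, 11454, 11597, 11535 and 11623, followed by Cct5, a subunit of the chaperonin that folds actin and tubulin, with 2244, 2287, 2242, 2208 and 2233. The other 7 least variable genes were Sgta, Hmgb3, Atp6ap1, Dnmt1, Dpp7, Gstm5 and Npc1, with CVs up to 1.94%. At the other end, Tradd, an adaptor of the TNF receptor, had 219, 269, 949, 1526 and 1069, a CV of 69.1%, low on replicates 1 and 2 and high on the rest. Erdr1 had 6063, 4354, 3729.6, 11191 and 6615, highest on replicate 4, and Glul, given above, was also in this group. Hand1, a transcription factor of the heart, had 662, 392, 98.3, 597 and 760.1, where replicate 3 was lowest. A probe set of Actb, the cytoplasmic beta-actin often used as a constant reference, had 1482, 1036, 721, 1221 and 2232, a CV of 42.7%. Actg1, given above, had a CV of 7.40%. Whether the Actb transcript itself or only the reading of this probe set varied was not tested. The other genes of the 10 with the highest CV were Snrp1c-ps2, Tbc1d10a, Ccdc186, Prp2 and Tyms-ps, with CVs from 43.6% to 57.9%.

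**Figure D4:**
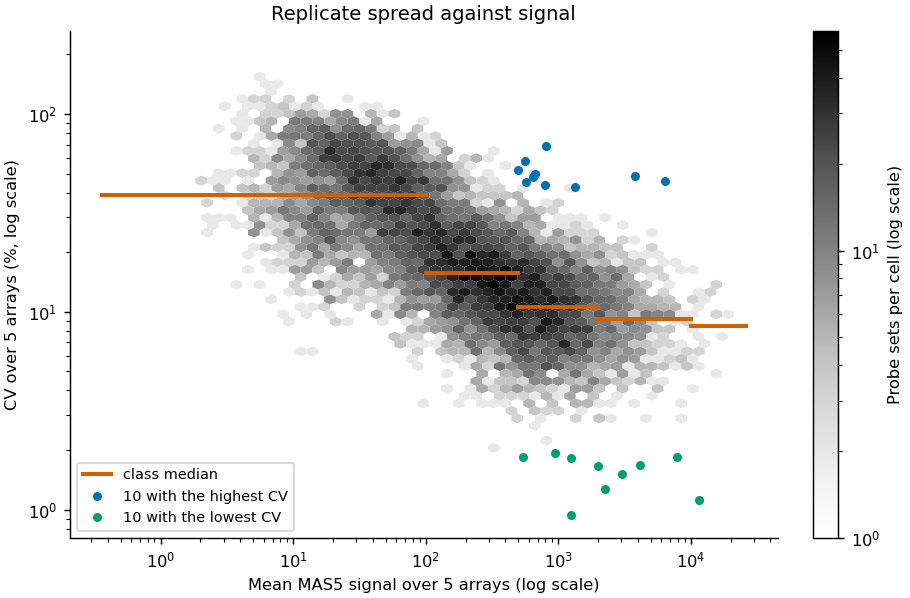
CV over the 5 arrays in percent (vertical axis, log scale) against mean MAS5 signal (horizontal axis, log scale); grey cells count probe sets (log scale), orange bars are class medians, and dots are the 10 genes with the highest and the 10 with the lowest CV at a mean of 500 or more. The class medians fall from 38.9% to 8.48%.

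The mean level of some lists differed between arrays. For each gene above 330, the deviation of log2(signal + 16) on an array from the gene's mean over the 5 arrays was averaged over the list. The 7 myelin genes stood at 0.00, 0.01, -0.25, 0.26 and -0.03 on replicates 1 to 5. Of the 7, 6 were highest on replicate 4, against 21.5% of all 3710 probe sets at 500 or more, and 5 were lowest on replicate 3, against 24.2%. The range of 0.50 on the log2 scale was the widest of the 26 lists, without a test. The 5 cell cycle genes had a range of 0.44. The 17 activity-regulated genes stood at -0.18, 0.12, 0.06, 0.00 and -0.02, with 7 of them highest on replicate 2 and 6 lowest on replicate 1, against 21.7% and 17.0% of all 3710 probe sets. The 55 respiratory chain genes stood at 0.09, -0.02, -0.14, 0.05 and 0.02, and 28 of the 55 were lowest on replicate 3, the array that was lowest for 24.2% of all 3710 probe sets at 500 or more. The 21 ribosomal protein genes averaged -0.13 on replicate 3, where 12 had their lowest value, against the same 24.2%. The 46 tubulin and actin genes differed by 0.05 and the 10 genes of mural cells and meninges by 0.03. Replicate 3 was also the array with the widest deviations in general: their SD over the 3710 probe sets at 500 or more was 0.15, 0.18, 0.20, 0.17 and 0.13 on replicates 1 to 5, and replicate 3 gave the highest of the 5 values for 28.8% of them and replicate 5 for 409 of the 3710. What moved these lists was not tested.

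**Figure D5:**
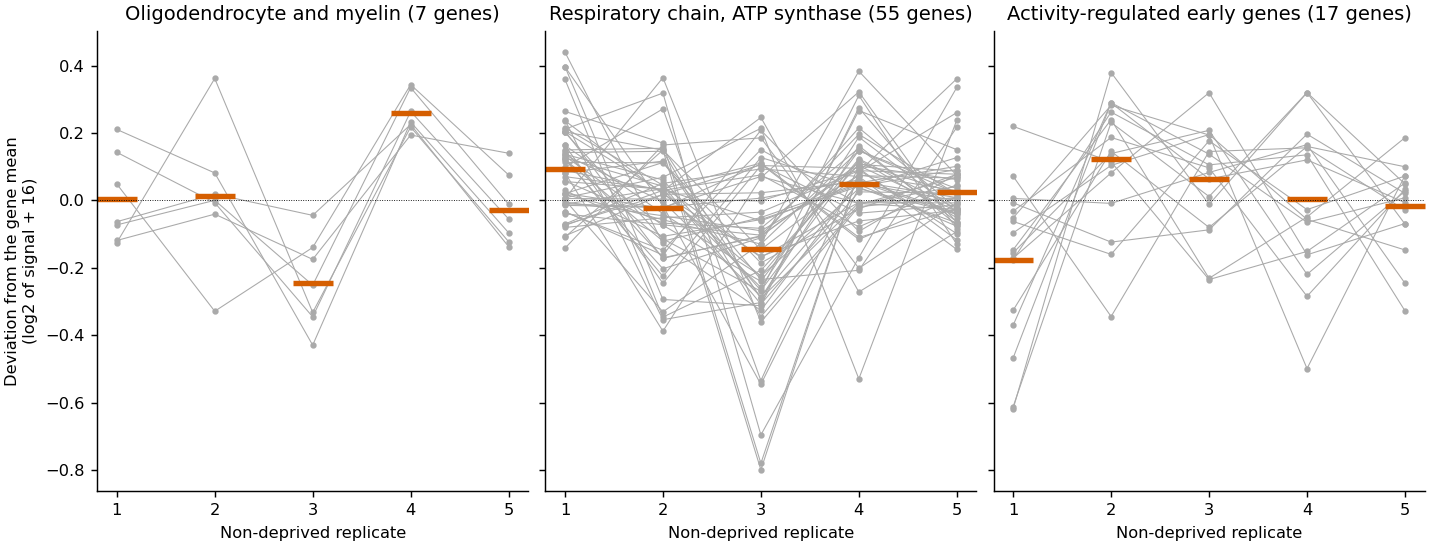
Deviation of log2(signal + 16) from each gene's mean over the 5 arrays (vertical axis) by non-deprived replicate (horizontal axis) for the myelin, respiratory chain and activity-regulated lists; grey lines are single genes above a signal of 330 and orange bars are list means. The myelin genes are low on replicate 3 (-0.25) and high on replicate 4 (0.26), and the activity-regulated genes are low on replicate 1 (-0.18).

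The promoters of the genes in each signal class were compared, using RefSeq promoters of assembly GRCm38.p6 from 250 bases before to 50 bases after each start, which were found for 6572 of the 8251 genes (79.7%); for a gene with several starts the highest count was taken. A CG dinucleotide count per promoter had a median of 10 for genes under 100, 21 at 100 to under 500, 24 at 500 to under 2000, 25 at 2000 to under 10000 and 24 at 10000 and over, against 20 over all these genes; over all promoters of the table, 1 value per start, it was 7. The medians of the 3 classes at 500 and over lay within 1 of each other, and the class under 100 stood below them. The letters TATAAA, read on the strand of the gene from 45 to 21 bases before the start, were found for 6.07, 2.64, 1.33, 2.18 and 8.33% of genes from the dimmest class to the brightest, the last being 3 of 36, against 3.21% of all 6572 genes counted in the same way. Counted per start, they were in 2.01% of all 32851 promoters of the table. On the opposite strand of that window they were found for 1.04, 0.659, 0.478, 0.544 and 2.78% of genes, against 0.715% of all these genes, and in 0.667% of all promoters. A match of this kind describes the letters only. Windows of the 100 bases before the start are shown for bright genes of either kind and for dim genes of other organs. The first pair are the genes at 10000 and over with the most CG dinucleotides over the whole promoter, 50 and 42, which are in capitals: Actg1 (chr11:120348496-120348595, minus strand), with 17 in this window, and Gnao1 (chr8:93810738-93810837, plus strand), with 15.
Actg1: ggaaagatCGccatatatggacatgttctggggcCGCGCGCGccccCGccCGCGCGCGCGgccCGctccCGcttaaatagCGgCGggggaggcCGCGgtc
Gnao1: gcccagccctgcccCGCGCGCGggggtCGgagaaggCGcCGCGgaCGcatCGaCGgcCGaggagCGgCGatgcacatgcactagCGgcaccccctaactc
The next pair are bright genes that hold TATAAA, in capitals, starting 29 bases before the start in Tubb2a (chr13:34078009-34078108, minus strand) and 28 bases before it in Ckb (chr12:111672339-111672438, minus strand).
Tubb2a: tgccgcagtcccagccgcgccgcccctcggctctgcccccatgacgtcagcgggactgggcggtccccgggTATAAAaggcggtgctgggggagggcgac
Ckb: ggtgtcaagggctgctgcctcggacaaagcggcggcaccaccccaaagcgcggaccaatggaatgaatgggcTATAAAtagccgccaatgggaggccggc
The last pair were chosen as the other-organ genes that hold the same letters, in capitals, and the fewest CG dinucleotides, so their low CG content is not a finding; the letters lie at 31 and 30 bases before the start: Myh4, a fast muscle myosin (chr11:67237712-67237811, plus strand), with a signal of 120.4 ± 12.5, and Cga, the shared alpha chain of pituitary hormones (chr4:34893679-34893778, plus strand), with 129 ± 43.8.
Myh4: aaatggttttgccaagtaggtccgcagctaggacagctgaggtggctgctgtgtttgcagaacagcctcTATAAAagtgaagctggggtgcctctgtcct
Cga: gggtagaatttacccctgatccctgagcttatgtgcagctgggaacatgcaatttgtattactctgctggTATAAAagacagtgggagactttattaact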

How the data were processed

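Each deposited value is a linear signal intensity of a probe set on an array. According to the submitters' processing notes it was made with MAS5, an Affymetrix program that combines matched and mismatched oligonucleotides into a single value. The program's version is not given in the sources used here, nor is the scaling target. Total RNA had been extracted with Trizol and about 10 µg labelled with biotin, per the labels' protocols. Leaving out 2% of probe sets at each end, the mean intensity of the arrays was 497 to 498 and their medians 191 to 201, so no further normalization was applied. Pearson correlations of log2(signal + 16) between the 10 pairs of arrays were 0.973 to 0.979 across probe sets, and no array repeated another. Detection calls were not used here. Arrays have no read depth, and their number limits the precision.

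Gene symbols came from a platform annotation table, updated through Entrez IDs; 396 probe sets had several symbols and 1193 none, and these were not named. Suffixes mark probe sets of family (f), group (g), shared (s), relaxed (r) or incomplete (i) design. Only 1 group was described, so no test between groups was run. Genes named are the 25 brightest, the 3 brightest and the defining member of each list, the 10 highest and 10 lowest CVs at 500 or more, those at the 10000 limit and the 5 with the most discordant probe sets; further members of the lists, Gnao1, Prkcb and Ckb were chosen after their values were seen. The lists and members were chosen with earlier results of these data known, and some genes are in several lists. One of 5 values was taken as apart when its gap to the nearest other value exceeded 0.71 of the range (Dixon, 95%). The calculations, in Python 3.11.15 with numpy 2.4.6 and pandas 2.3.3, were tested on simulated data. Alternatives covered normalization, the summary over arrays, probe sets used, pseudocounts and single arrays.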

Additional observations from a re-analysis of the deposited data

Results flagged for a closer look

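On 1 of 5 arrays the value of 6 of the 142 named probe sets (4.23%) lay apart from the other 4; chance alone places about 5% of such groups there, and over all 3710 probe sets with a mean of 500 or more the number was 215 (5.80%). Of those 215, replicate 3 was the array apart in 93, replicate 2 in 52, replicate 4 in 34, replicate 1 in 24 and replicate 5 in 12. Gnas was highest on replicate 2 (20524, against 16033 to 17319 on the others). Zwint was highest on replicate 3, at 19358. Aldoa was highest on replicate 1, at 13650.0, and Gria2 on replicate 5, at 9072. Kcnma1 was highest on replicate 2, at 4075. Sgta, one of the least variable genes, was highest on replicate 3, at 3112. Of 26 lists examined in the same way, 1, the ribosomal protein genes, lay apart on replicate 3, with a mean deviation of -0.13 on the log2 scale, no more than the 5% that chance places there.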

How the results depend on the processing

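No paired analysis was possible because only the non-deprived group is described and no test was run. Over 42 results, 574 values were compared with the reported ones. Of these, 548 stayed within the spread between replicates, or within 1.5 times for a count, and 26 did not. Part of the 548 could not have moved, so the tally does not measure robustness. Leaving out genes under the yardstick of 330 cannot change counts at 500 or more or the brightest genes. Lists, brightest genes and the ratio between probe sets used only probe sets of 1 symbol from the start. Quantile normalization, scaling to a common median and the geometric mean moved none of them. Without probe sets of lower-specificity suffixes, 44 probe sets lay at 10000 and over (70 reported), the brightest 1% held 16.2% (17.8%), the ratio between probe sets of a gene was 3.94 (4.55), and 16 of the 25 brightest genes stayed so; genes at 500 or more fell to 5 for mural cells and meninges (8), 2 for thalamus, striatum and hippocampus (5), 1 for the cell cycle (3), 0 for other organs (2) and 0 for Hox (2), and Gnas fell to 136. With the mean over all probe sets of a gene, those for thalamus, striatum and hippocampus numbered 2, cell cycle 1, other organs 1 and Hox 0, 18 of the 25 brightest genes stayed so, and several of them moved by over 1.5 times: Gnas to 5907, Cx3cl1 to 9093, Ndrg4 to 9269.8, Apoe to 7766, Tubb2a to 7817, Ywhag to 7443 and Cst3 to 6945. The median over arrays gave a ratio of 4.76 and 1 other-organ gene. With probe sets of 1 symbol only, the brightest 1% held 17.1%. Without a block of 1505 probe sets with shared leading numbers (median 68.9 against 228 for the rest), an alternative added after seeing the data, it held 17.2% and the ratio was 3.80. As an SD of log2(signal + 16), on the scale of a CV, the spread under 100 was 24.7%, and with 50 added it was 14.3%, and 13.1% at 100 to under 500. Leaving out single arrays gave CVs of 36.1 to 38.1% under 100, 7.31 to 9.94% at 2000 to under 10000 and 6.05 to 8.65% at 10000 and over, each lowest without replicate 3, and 1 to 3 other-organ genes at 500 or more (1 without replicate 4). Values under about 330 lie where most other-organ genes lie, which limits what can be read from them. No background level or detection call was used to set that value.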

Other observations

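The genes at 10000 and over not described above serve several functions. Ncdn, a neuronal protein that affects neurite growth, had signals of 11726, 12804, 13119, 12781 and 12224 on replicates 1 to 5, and Thra, the thyroid hormone receptor most abundant in brain, had 10208, 10774, 12449.9, 10713 and 10601. Scd2, the fatty acid desaturase of developing brain, had 9613, 13035, 11409.8, 9877 and 12009, lowest on replicate 1 and highest on replicate 2. Arf1, a small GTPase of the Golgi, had 10571 ± 635. Ybx1 and Matr3, which bind RNA, had 10201 ± 852 and 10930.2 ± 527, and Norad, a long noncoding RNA, had 11364 ± 613. Ptms, a small acidic nuclear protein, had 12491 ± 643, and Cmip, an adaptor protein, had 10023 ± 1553, with 8332 on replicate 1 and 12124 on replicate 3.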
